A study of Mus musculus with 12 samples.

Results

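Heparan sulfate genes were followed in polyamine-depleted mouse fibroblasts as a set of 10 genes, which encode enzymes that build the chain (Ext1, Ext2), sulfate it (Ndst1, Ndst2, Hs2st1, Hs6st1, Hs6st2) or trim its sulfates outside the cell (Sulf1, Sulf2), and 1 core protein that carries it (Sdc4). The genes were taken by symbol from the annotation of the array, with 1 transcript cluster per gene, and they were chosen by symbol and by role, with the measured rise of Sulf2 in these arrays as part of the reason. A cluster was matched for 9 of the 10 genes among 19938 genes, and Ndst1 was not analysed here. NIH3T3 cells, an established mouse fibroblast line, were cultured in serum-containing medium and sorted for the G1 phase of the cell cycle. The groups were untreated cells (3 arrays, assigned to 0 h in the series text) and cells exposed to 1 mM difluoromethylornithine (DFMO) for 12 h (2 arrays), 24 h (3 arrays), 48 h (2 arrays) and 96 h (2 arrays). DFMO blocks ornithine decarboxylase, the first enzyme of polyamine synthesis. No allele, and no agent other than DFMO and the antibiotics of the medium, is named, and all groups share the line, the medium and the sort. The replicates are called biological in the labels, without saying what was repeated, so p-values measure the spread between these arrays. Untreated cells were analysed at 1 time, so hours in culture and hours of drug cannot be told apart.

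Heparan sulfate is a long sulfated sugar chain attached to core proteins such as syndecans, glypicans and perlecan at the cell surface and in the matrix. It is polymerised in the Golgi, N-sulfated, epimerised and O-sulfated there, and its 6-O-sulfates can be removed later by the extracellular sulfatases SULF1 and SULF2, which changes the binding of growth factors. The negatively charged chains also bind polyamines, and heparan sulfate proteoglycans have been implicated in polyamine uptake.

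All values are log2 expression levels as deposited, between 2.53 and 13.18, and the r between replicates over genes was 0.994 to 0.998. Calls required an adjusted p below 0.05 in limma, a linear model fitted to all 19938 genes and 12 arrays. The 10 fibroblast markers had a median group mean of 10.12 to 10.18, and at 96 h 6 of them fell and 1 rose, among them Thy1 (-2.35 ± 0.11 SE, adjusted p = 7.3e-07, n = 2 against 3). The median of 7 leukocyte markers stayed between 3.57 and 3.64, of 6 endothelial markers between 3.44 and 3.61 and of 7 epithelial markers between 3.50 and 3.60. Single markers of these 3 lists were called at 96 h behind the flat medians. The epithelial marker Krt14 was at 7.01 at 96 h, against 8.83 in untreated cells (log2 change -1.82, adjusted p = 0.000442), while Cdh1 was at 4.62 against 4.04 (0.58, adjusted p = 0.000231). The leukocyte marker Lyz2 was at 6.25 at 96 h, against 4.34 in untreated cells (1.90, adjusted p = 0.00137), and the endothelial marker Tek at 3.71 against 3.37 (0.34, adjusted p = 0.00198). Background stays in values of this kind, and the medians of these lists show where its floor lies. Tek lies at this floor, so no change is read from its levels. The median of 7 proliferation markers was 9.28 in untreated cells and 9.07, 9.05, 8.26 and 5.04 at 12, 24, 48 and 96 h. Of these 7, 6 fell at 48 h, and at 96 h all 7, and the part of any of these markers in the results below was not tested.

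Sulf2, which encodes an extracellular 6-O-endosulfatase of heparan sulfate, was the member with the large change. Its log2 level was 4.96, 4.84 and 4.70 on the untreated arrays, 4.92 and 4.89 at 12 h, and 4.59, 4.99 and 5.01 at 24 h. The later arrays read 6.46 and 6.72 (48 h) or 8.59 and 8.71 (96 h). The arrays up to 24 h overlapped with untreated cells, whereas both arrays at 48 h lay above all of these and both at 96 h above those at 48 h. The mean was 6.59 ± 0.18 (SD, n = 2) at 48 h and 8.65 ± 0.08 (SD, n = 2) at 96 h, against 4.83 ± 0.13 (SD, n = 3) in untreated cells. The differences of 1.75 and 3.82 on the log2 scale correspond to 3.37-fold and 14.1-fold. Because this rise helped to choose the set, it is given as a description without a test. Among 19938 genes the change of Sulf2 had rank 3 from the highest at 48 h and again at 96 h, while its ranks at 12 and 24 h were 4025 and 6145. Between 24 h and 48 h the mean differed by 1.72 and between 48 h and 96 h by 2.06. RNA per cell and the number of cells that make a transcript cannot be told apart in bulk RNA.

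**Figure D1:**
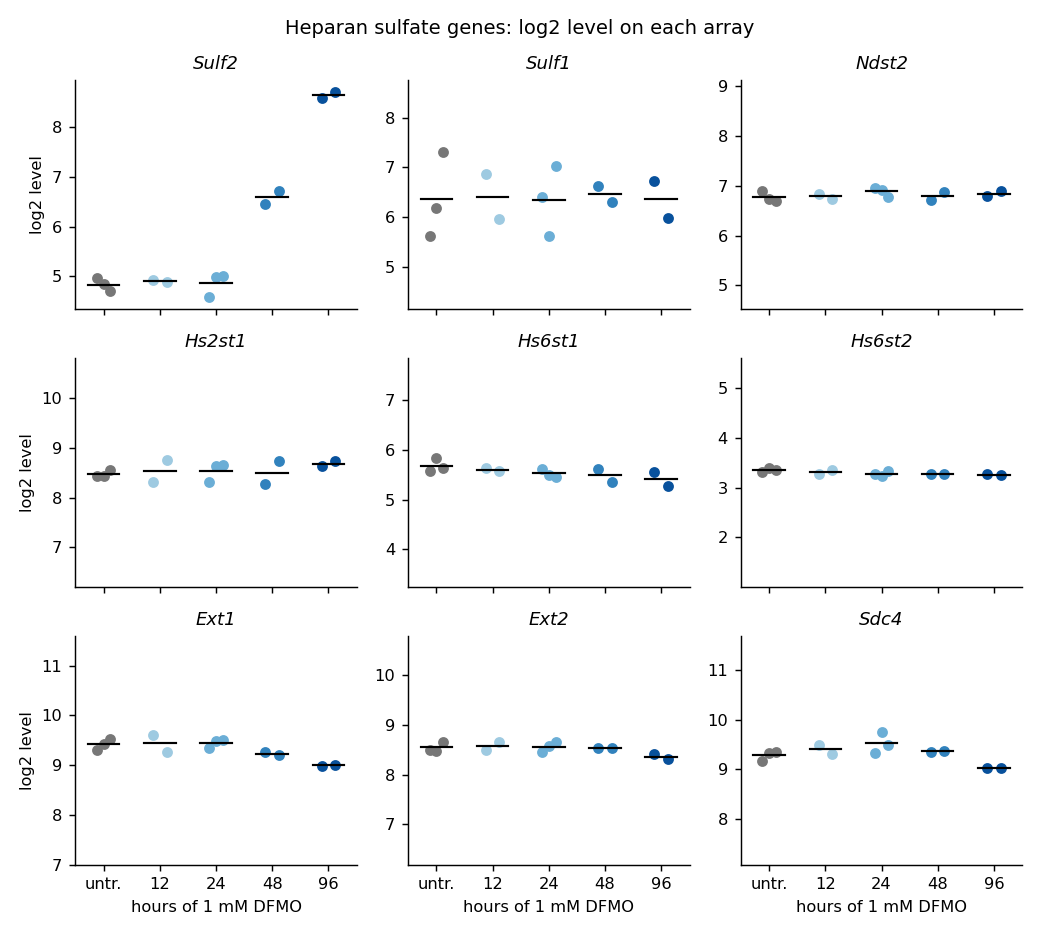
Log2 level on vertical axes of equal span, for the 9 measured heparan sulfate genes on each array, by hours of 1 mM DFMO. Points are arrays and lines group means. Sulf2 stands at 8.59 and 8.71 at 96 h and at 4.70 to 4.96 in untreated cells, while the other genes stay near their untreated level or, for Sulf1, scatter within groups.

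The promoter windows of Sulf2 are shown because its transcript carries the main change, and that of Papss1 because it fell most among the other genes of the pathway described below. They run from 250 bases before to 50 bases after a RefSeq transcript start (assembly GRCm38.p6), 5′ to 3′ on the strand of the gene. Capitals mark matches, on either strand, to the TATA box (TATAAA), the CCAAT box (CCAAT), the GC box (GGGCGG), the E box (CACGTG), the AP-1 site (TGACTCA) or the E2F site (TTTGGCGC or TTTCCCGC).
Sulf2, first start, chr2:166155634-166155933, minus strand: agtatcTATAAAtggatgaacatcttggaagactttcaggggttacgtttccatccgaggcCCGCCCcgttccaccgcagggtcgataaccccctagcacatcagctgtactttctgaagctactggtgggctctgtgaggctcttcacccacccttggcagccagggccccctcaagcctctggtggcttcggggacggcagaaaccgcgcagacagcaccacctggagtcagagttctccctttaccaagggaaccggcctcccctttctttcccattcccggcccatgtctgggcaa
Sulf2, second start, chr2:166155236-166155535, minus strand: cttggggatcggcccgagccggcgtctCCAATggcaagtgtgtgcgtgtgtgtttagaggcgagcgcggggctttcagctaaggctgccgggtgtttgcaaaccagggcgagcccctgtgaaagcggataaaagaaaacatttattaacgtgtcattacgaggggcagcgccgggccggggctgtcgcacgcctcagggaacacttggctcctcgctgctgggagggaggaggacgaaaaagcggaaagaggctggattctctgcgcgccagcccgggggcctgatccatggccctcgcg
Papss1, first start, chr3:131564518-131564817, plus strand: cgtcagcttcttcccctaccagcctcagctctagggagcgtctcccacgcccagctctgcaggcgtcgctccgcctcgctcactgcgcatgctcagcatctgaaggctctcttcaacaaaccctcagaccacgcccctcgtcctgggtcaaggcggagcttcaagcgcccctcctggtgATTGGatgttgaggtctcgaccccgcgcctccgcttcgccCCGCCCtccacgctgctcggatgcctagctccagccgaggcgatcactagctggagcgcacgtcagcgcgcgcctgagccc
The first Sulf2 window held 1 TATA box match, at position -244 from the start, and 1 GC box match, and the second held 1 CCAAT match. The Papss1 window held 1 CCAAT and 1 GC box match. The window of a second Papss1 start, not printed, had a GC content of 47.3% and held 1 CCAAT match and no GC box. None of the 3 windows held the E box, AP-1 or E2F letters. Among 32851 windows of the same length, 13.6% held the TATA box, 37.4% CCAAT, 35.7% the GC box, 7.15% the E box, 5.2% AP-1 and 1.56% the E2F letters. Windows were used for 7 of the 10 members, without Sulf1, Ext1 and Ndst1. The 9 windows of these 7 members had a median GC content of 66.7%, against 52.7% over all windows.

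Sulf1, the other 6-O-endosulfatase, had no called change. Its log2 level was 5.63, 6.18 and 7.30 in untreated cells, 6.86 and 5.96 at 12 h, and 6.40, 5.62 and 7.02 at 24 h. It was 6.62 and 6.31 after 48 h and 6.73 and 5.99 after 96 h. All treated arrays lay inside the range of the untreated ones except for 1 array at 24 h. At 96 h the log2 change was -0.01 with a 95% confidence interval of -1.20 to 1.19 (limma adjusted p = 0.997, n = 2 against 3). The interval leaves room for a change of more than 2-fold either way, because Sulf1 varied within groups more than 99.9% of genes, with a pooled SD of 0.671 log2 units against a median of 0.0953 over all genes. The highest Sulf1 value was that of replicate 3 in both the untreated and the 24 h group, and these 2 arrays deviated together across genes (r = 0.581).

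Of the chain-building genes, Ext1 fell at 96 h and was the only one of the 8 tested members to be called in any comparison. Ext1 and Ext2 encode the subunits of the polymerase that adds the alternating sugars of the chain. Ext1 had log2 levels of 8.99 and 9.01 at 96 h, against 9.30, 9.43 and 9.53 in untreated cells, so the groups did not overlap. The level fell by 0.42 ± 0.10 (SE), or 1.34-fold, with an adjusted p of 0.0141 in limma (n = 2 against 3). The call ended without replicate 1 of the 96 h group (log2 change -0.41, adjusted p = 0.0833) and without replicate 2 (-0.43, adjusted p = 0.07), where 1 array stands for the group. At 48 h both Ext1 arrays, 9.26 and 9.20, lay just under the untreated ones, and the change of -0.19 was not called (adjusted p = 0.341). Ext2 was at 8.41 and 8.32 at 96 h, against 8.50, 8.48 and 8.66 in untreated cells. Its change of -0.18 was not called (adjusted p = 0.162). The groups did not overlap, but with 2 against 3 arrays separation alone is not read as a change.

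The sulfotransferase members showed no called change at any time. Ndst2, an N-deacetylase and N-sulfotransferase that opens the chain to further sulfation, stayed between 6.70 and 6.96 on all 12 arrays. Its change at 96 h was 0.06 with a 95% confidence interval of -0.13 to 0.26, which leaves out a change of 1.5-fold either way. Hs2st1, which sulfates uronic acid at the 2-O position, was at 8.63 and 8.74 at 96 h, against 8.43, 8.43 and 8.56 in untreated cells. Both 96 h arrays lay above the untreated ones, and the change of 0.21 (-0.17 to 0.59) was not called (adjusted p = 0.505).

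The 2 measured 6-O-sulfotransferase members, which add the sulfates that SULF2 removes, were not called, and only Hs6st1 lay above the floor. Hs6st1 was at 5.55 and 5.27 at 96 h, against 5.57, 5.83 and 5.63 in untreated cells, and at 5.62 and 5.35 at 48 h. Its group mean was 5.68 in untreated cells and 5.61, 5.53, 5.48 and 5.41 at 12, 24, 48 and 96 h. The change at 96 h was -0.27 ± 0.11 (SE, 95% confidence interval -0.52 to -0.02, unadjusted p = 0.0395 and adjusted p = 0.138 in limma, n = 2 against 3). Hs6st2 lay between 3.23 and 3.39 on all arrays, at the floor where the leukocyte markers lay, so no change in it could be read here.

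Sdc4, a syndecan that spans the membrane and carries heparan sulfate, differed in sign between times, with no call. It was at 9.02 and 9.02 at 96 h, against 9.17, 9.34 and 9.35 in untreated cells, and the change was -0.26 (adjusted p = 0.147). At 24 h its levels were 9.33, 9.75 and 9.50 and the change was 0.24 (unadjusted p = 0.0373, adjusted p = 0.608). From 48 h to 96 h it changed by -0.34 ± 0.12 (adjusted p = 0.135), and when only these 2 groups were fitted this step was called (adjusted p = 0.0386).

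**Figure D2:**
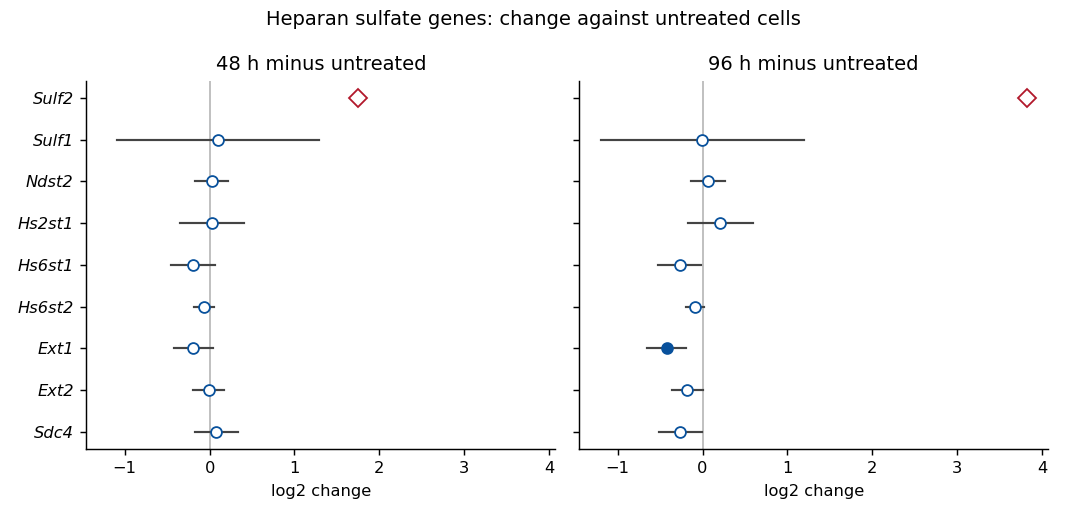
Log2 change of the 9 measured heparan sulfate genes at 48 h and 96 h of DFMO against untreated cells. Circles carry 95% confidence intervals from limma and are filled where called. Sulf2 is an open diamond without interval because it was not tested. Sulf2 stands at 1.75 and 3.82, and only Ext1 at 96 h (-0.42) is filled.

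Counted over the 8 tested members, 0 were called at 12, 24 and 48 h and 1 at 96 h, which was lower. By limma the share of all genes called in either direction was 0% at 12 h, 0% at 24 h, 5.82% at 48 h (2.65% higher, 3.17% lower) and 21.9% at 96 h (11.8% higher, 10.1% lower). At an unadjusted p under 0.05 the members numbered 0, 1, 0 and 4 of 8 at these times, and all genes 741, 1579, 3947 and 5979. The median log2 change of the 8 members was 0.02, 0.02, 0.01 and -0.14 at 12, 24, 48 and 96 h, against -0.01, -0.02, -0.02 and 0 over all genes. In the steps 0 members were called for 48 h against 24 h and 0 for 96 h against 48 h, with 0 and 1 at an unadjusted p under 0.05. There 1.67% of all genes were called at the first step (0.527% higher, 1.14% lower) and 8.64% at the second (4.35% higher, 4.29% lower). The comparisons with untreated cells share those 3 arrays. The members were picked with earlier results known, so nothing about the set is read from these counts.

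The genes whose pattern was most like that of Sulf2 are listed as a description. With Sulf2 at rank 3 of 19938 genes at 96 h, nearly any gene picked would have a smaller rise. Over the 12 arrays, and among 1314 genes whose group means spanned at least 1 log2 unit, the highest Pearson r was 0.994, for Mgmt, which repairs alkylated guanine in DNA. Mocs1, a gene of molybdenum cofactor synthesis, followed with r of 0.989, then Rasa3, a GTPase-activating protein for Ras (0.988), Dynlt3, a dynein light chain (0.988), and Uprt, named for uracil phosphoribosyltransferase (0.987). The mean change at 96 h was 1.59 for Mgmt, 1.45 for Mocs1, 1.38 for Uprt, 1.21 for Rasa3 and 1.13 for Dynlt3, against 3.82 for Sulf2. The 12 points share the time course, so any gene with a late rise correlates highly.

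**Figure D3:**
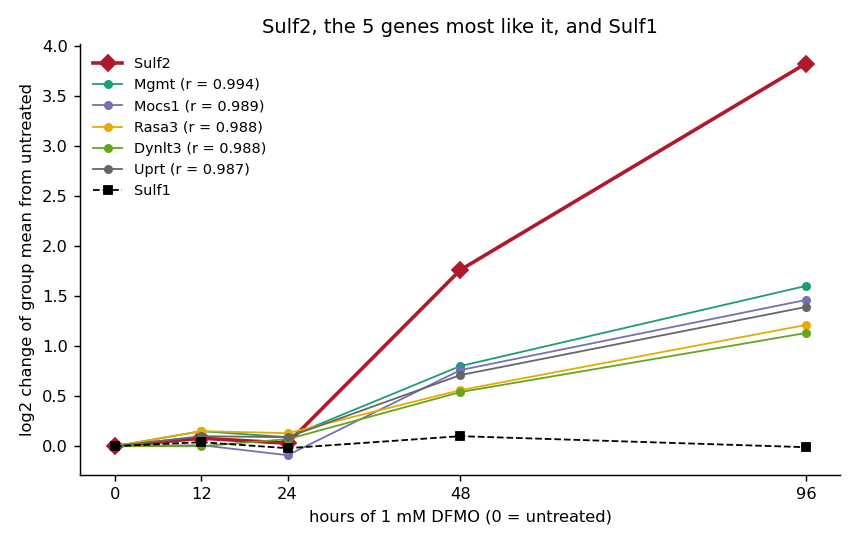
Change of group mean log2 level from untreated cells, by hours of DFMO, for Sulf2, for the 5 genes with the highest Pearson r to it over 12 arrays, and for Sulf1. At 96 h Sulf2 reaches 3.82, the others named with an r lie between 1.13 and 1.59, and Sulf1 is at -0.01.

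Transcripts of both synthases of activated sulfate fell at 96 h. Papss1 and Papss2 encode the synthases of PAPS, the donor used by every sulfotransferase of the chain. Papss1 was at 7.38 and 7.41 at 96 h and 8.30 and 8.34 at 48 h, against 9.14, 9.07 and 9.11 in untreated cells, with 9.10 and 9.05 at 12 h and 8.73, 8.97 and 8.82 at 24 h. The groups from 24 h on lay below all untreated arrays. At 48 h Papss1 fell by 0.79 ± 0.07 (SE), or 1.73-fold, with an adjusted p of 0.000672 in limma. At 96 h it fell by 1.71 ± 0.07, or 3.28-fold, with an adjusted p of 2.34e-07 (n = 2 against 3). At 24 h its change was -0.27 and was not called. Papss2 was at 8.71 and 8.31 at 96 h, against 9.33, 9.28 and 9.53 in untreated cells, and fell by 0.87 ± 0.14 (1.83-fold, adjusted p = 0.00188). At 48 h its levels were 8.86 and 8.93, and the change of -0.48 was not called (adjusted p = 0.0916). It was called when only the groups compared were fitted (adjusted p = 0.0443) and with array weights (-0.45, adjusted p = 0.0402).

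Of 13 measured genes of precursor supply, 1 was called higher and 4 lower at 96 h, against 0 higher and 2 lower at 48 h. Over all genes the shares were 11.8% higher and 10.1% lower at 96 h, and 2.65% and 3.17% at 48 h. Uxs1, which makes UDP-xylose for the first sugar of the linkage, fell by 0.52 ± 0.13 (adjusted p = 0.0187). Slc35d1, a transporter of nucleotide sugars into the secretory pathway, rose by 0.43 ± 0.11 (adjusted p = 0.0187). The Uxs1 call ended without 96 h replicate 1 (log2 change -0.41), and the Slc35d1 call without that array (0.32) or without untreated replicate 1 or 2 (0.40 each). Ugdh, which makes UDP-glucuronic acid and was chosen after its values were seen, fell by 0.32 ± 0.07 at 48 h (adjusted p = 0.0235) and was not called at 96 h (-0.14). This call ended without any single array of the 48 h or untreated group, at log2 changes of -0.33 to -0.31. It also ended with dim genes left out (adjusted p = 0.0558) and with a trended, robust variance prior (adjusted p = 0.058).

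The linkage region, the short sugar stem on the core protein, had 2 of 7 genes higher and 1 lower at 96 h. Of all genes, 11.8% were called higher and 10.1% lower at that time. B4galt7, which adds the first galactose, rose by 0.54 ± 0.09 (adjusted p = 0.00188), and B3gat3, which adds the glucuronic acid that completes the stem, by 0.31 ± 0.06 (adjusted p = 0.00623). Fam20b, the kinase that phosphorylates the linkage xylose, fell by 0.53 ± 0.12 (adjusted p = 0.0113). B3gat3 was no longer called without 96 h replicate 1 (0.27) or with a trended, robust variance prior (adjusted p = 0.0936), and Fam20b without 96 h replicate 2 (-0.48).

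Among the 14 other chain enzymes, 2 were called higher at 96 h and 2 at 48 h, with 0 lower at either time. Of all genes, 11.8% were called higher at 96 h and 2.65% at 48 h. Extl2, a glycosyltransferase that can add a sugar to the linkage stem, was at 7.60 and 7.43 at 96 h, against 6.85, 6.96 and 6.94 in untreated cells, and rose by 0.60 ± 0.10 (1.51-fold, adjusted p = 0.00149). Hs6st3, a further 6-O-sulfotransferase, was at 3.72 and 3.85 at 96 h, against 3.54, 3.55 and 3.53 in untreated cells. It is counted among the called genes (log2 difference 0.25, adjusted p = 0.00874), but these levels lie at the floor, so as for Hs6st2 no change is read from them. The call ended without 96 h replicate 2 (0.18). Glce, the epimerase that turns glucuronic into iduronic acid, was highest at 48 h and was chosen after its values were seen. It was at 9.04 and 8.90 at 48 h, against 8.27, 8.33 and 8.62 in untreated cells, and at 8.57 and 8.63 at 96 h. It rose by 0.56 ± 0.10 at 48 h (adjusted p = 0.0115). This call was lost without 48 h replicate 1 (0.49) and with only the groups compared (adjusted p = 0.0606). At 96 h Glce was not called (0.19), except without untreated replicate 3 (0.30, adjusted p = 0.0162). Leaving out that array together with 12 h replicate 2 and 24 h replicate 3 also gave a call (0.30, adjusted p = 0.0251).

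Of 14 other core proteins, only Sdc2 was called, and it rose, where 2.65% of all genes were called higher at 48 h and 11.8% at 96 h. Sdc2, a second syndecan, was at 10.01 and 10.25 at 96 h and 9.63 and 9.57 at 48 h, against 9.20, 9.18 and 9.33 in untreated cells, with no overlap at either time. It rose by 0.36 ± 0.09 (adjusted p = 0.0398) at the earlier of these times. At 96 h it rose by 0.89 ± 0.09, or 1.85-fold (adjusted p = 7.42e-05, n = 2 against 3). The 48 h call was lost without untreated replicate 1 (0.35) or 2 (0.33) or either 48 h array (0.34 and 0.39). With all 12 arrays it was also lost when all clusters were tested (adjusted p = 0.0665) or dim genes left out (adjusted p = 0.0511). The same held with a trended, robust variance prior (adjusted p = 0.0759). Of the 11 measured turnover genes, 2 rose and 0 fell at 96 h, beside 11.8% and 10.1% of all genes. Ids, a lysosomal sulfatase of iduronic acid, rose by 0.49 ± 0.08 (adjusted p = 0.00227), and Arsg, another lysosomal sulfatase, by 0.28 ± 0.05 (adjusted p = 0.00484). Arsg was also called higher at 48 h, where its mean was 4.40, against 4.29 at 96 h and 4.01 in untreated cells. These Arsg levels lie not far above the floor.

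Enzymes of chondroitin and dermatan sulfate, which share the linkage stem and the sulfate donor, had 2 of 16 genes higher and 6 lower at 96 h. The shares of all genes were 11.8% higher and 10.1% lower. Ust, a uronyl 2-O-sulfotransferase, was at 7.50 and 7.64 at 96 h, against 6.6, 6.35 and 6.47 in untreated cells, and rose by 1.10 ± 0.12 (2.14-fold, adjusted p = 0.00015). Dsel, related to dermatan sulfate epimerase, was at 5.57 and 5.90 at 96 h, against 6.69, 6.83 and 6.69 in untreated cells, and fell by 1.00 ± 0.13 (2.0-fold, adjusted p = 0.000367). Chst14, the dermatan 4-O-sulfotransferase, fell by 0.98 ± 0.16 (adjusted p = 0.00202) and Chpf, a chondroitin polymerising factor, by 0.59 ± 0.08 (adjusted p = 0.000534). The median change of this list at 96 h was -0.34, against 0 over all genes.

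**Figure D4:**
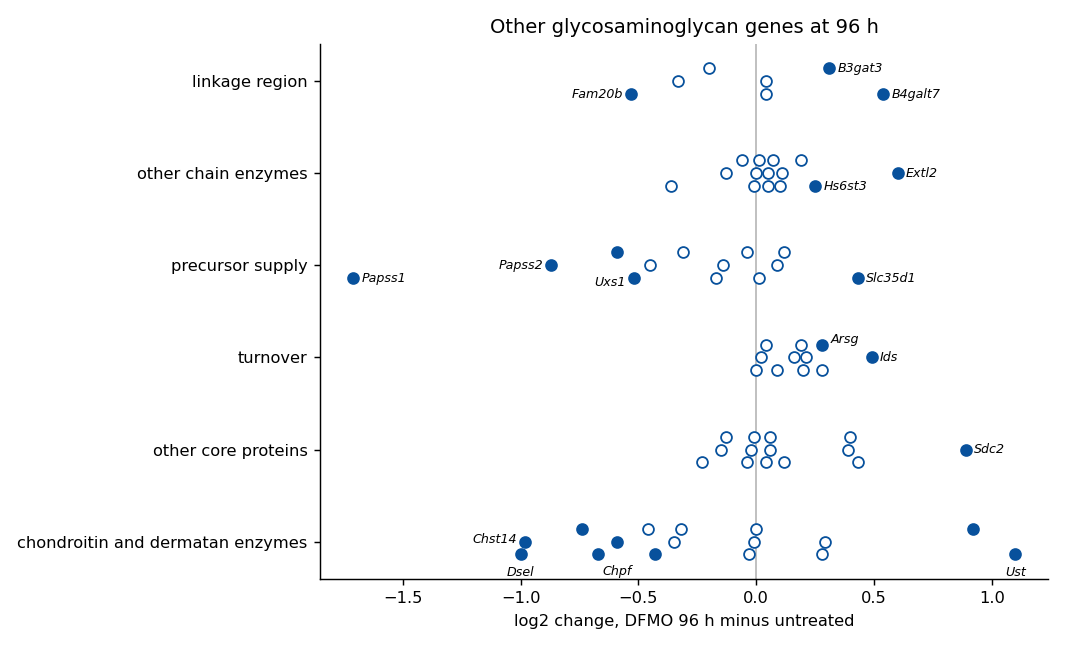
Log2 change at 96 h of DFMO against untreated cells for 75 other genes of glycosaminoglycan metabolism, by list. Each point is a gene, filled where called by limma, and the called genes named in the text are labelled. Papss1 stands lowest at -1.71 and Ust highest at 1.10.

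Over all 75 genes of these 6 lists, 6 were called higher and 2 lower at 48 h, and 10 higher and 11 lower at 96 h, beside the 5.82% and 21.9% of all genes called. No gene of the lists was called at 12 or 24 h by limma, where 1 and 8 had an unadjusted p under 0.05. Their median change was 0 at 48 h and 0.01 at 96 h, against -0.02 and 0 over all genes. The 48 h count of 8 became 4, 3 and 5 without untreated replicates 1, 2 and 3, and 3 and 4 without replicates 1 and 2 of the 48 h group. Besides Sdc2 and Glce, the 48 h calls of B4galt7 (0.38), Extl2 (0.41) and Ust (0.54) each ended without single arrays, at log2 changes of 0.31 to 0.42, 0.27 to 0.43 and 0.36 to 0.54. Each also ended with all clusters tested (adjusted p = 0.0681, 0.0632 and 0.0501) and with only the groups compared. The 48 h calls of Papss1 and Arsg held without each single array. Their log2 changes were -0.81 to -0.75 for Papss1 and 0.37 to 0.42 for Arsg over all settings.

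**Figure D5:**
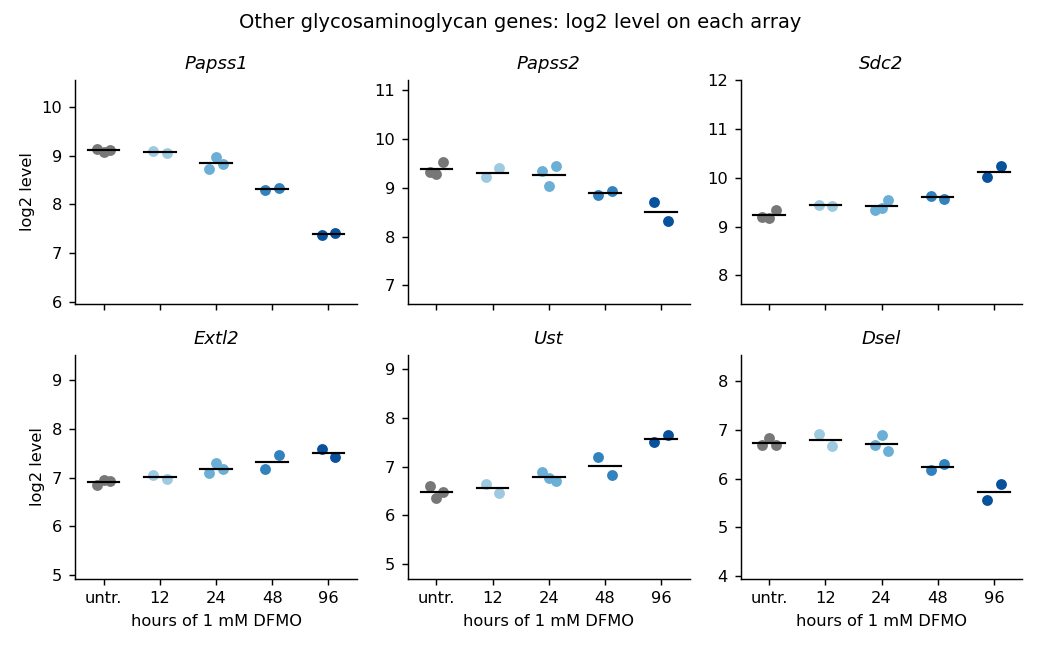
Log2 level on each array, by hours of 1 mM DFMO, for 6 genes named among the other pathway lists. Points are arrays, lines group means, and the vertical axes span the same number of log2 units. Papss1 is at 7.38 and 7.41 at 96 h and at 9.07 to 9.14 in untreated cells.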

How the data were processed

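The 12 arrays (Affymetrix, mouse, whole-transcript) held total RNA of G1-sorted NIH3T3 cells. The authors deposited log2 values of 35399 transcript clusters, for which the submitters' processing notes name RMA and Partek without versions; no genome build is given in the sources used here. RMA usually includes quantile normalisation, which would hide a change of most transcripts in 1 direction, and array medians were 4.13 to 4.20. The number of arrays limits the precision.

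Clusters with exactly 1 symbol in the platform annotation (21789, against 1621 with several and 11989 unnamed here) were used, and the cluster with the highest mean represented a gene. The limma model (version 3.58.1, R 4.3.3) took the 12 arrays together, with a mean for each of the 5 groups and no replicate term. Its two-sided p-values had Benjamini-Hochberg adjustment over 19938 genes. On simulated data for the 96 h comparison of 19938 genes, 94% of 2-fold and 76.4% of 1.5-fold changes were recovered. The simulated noise was independent between arrays and few genes were changed, unlike here, so these shares are not the power in these data.

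The members and lists were chosen with earlier results of these data known. All members are named, with up to 4 genes of each other list that had the smallest p among those called at 96 h, and the 5 genes most like Sulf2. Alternatives were the replicate block, other clusters, a filter on dim genes, centring, array weights, another variance prior, fewer groups, single arrays left out and 3 arrays left out together. Same-number arrays of the 24 h and untreated groups deviated together (r of 0.153, 0.287 and 0.581), though unlike numbers reached 0.235. Those of the 48 h and 24 h groups did so too (r of 0.35 and 0.419), while unlike numbers reached 0.102. The 2 arrays of the 48 h group deviate in mirror image, so these values are not separate. The replicate block took same numbers as pairs, while the main model did not. At 12 h, replicate 2 deviated with untreated replicate 3 (r = 0.318) and not with untreated replicate 2 (r = -0.255). The comparisons other than 24 h minus untreated have fewer than 3 pairs.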

Additional observations from a re-analysis of the deposited data

Results flagged for a closer look

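No group here had the 4 arrays needed to look for an array far from its group. Steps between 2 times that passed limma's test of the step itself, among the named genes, are the following. The log2 change of Papss1 was -0.52 at 48 h against 24 h (adjusted p = 0.00858) and -0.92 at 96 h against 48 h (adjusted p = 7.5e-05). The first of these Papss1 calls ended without 48 h replicate 1 (-0.50) or 2 (-0.54), and with only the groups compared (adjusted p = 0.104). Glce, chosen after its values were seen, rose by 0.55 at 48 h against 24 h (limma adjusted p = 0.0255). This Glce call ended with all clusters tested and with only the groups compared (adjusted p = 0.0547 and 0.0643). It also ended without any single array of either group, at log2 changes of 0.48 to 0.62. At 96 h against 48 h Sdc2 rose by 0.53 (adjusted p = 0.00826), Ust by 0.55 (adjusted p = 0.0297) and Ids by 0.36 (adjusted p = 0.0438), while the log2 change of Chpf was -0.43 (adjusted p = 0.0139) and of Chst14 -0.85 (adjusted p = 0.0179). Each of these 5 calls was lost without at least 1 single array, at log2 changes of 0.41 to 0.50 for Sdc2, 0.37 to 0.62 for Ust, 0.30 to 0.41 for Ids, -0.44 to -0.31 for Chpf and -0.94 to -0.76 for Chst14. Those of Ids, Ust and Chpf also ended with only the groups compared (adjusted p = 0.0667, 0.096 and 0.0756).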

How the results depend on the processing

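Sulf2 stayed between 1.63 and 1.88 at 48 h and between 3.75 and 3.88 at 96 h over all settings. With the replicate block the called members numbered 0 at 12, 24 and 48 h and 1 at 96 h, as without it, and the other pathway genes 10 at 48 h and 24 at 96 h. The block ended the 48 h call of Extl2 (0.41, adjusted p = 0.055) and added those of Dsel at 48 h (-0.55, adjusted p = 0.033) and, from 48 h to 96 h, of Dsel (-0.50) and Glce (-0.37). It changed no other call of a named gene. The 1 member called at 96 h became 0 without either 96 h array (0 to 1 over single arrays left out). In the step from 48 h to 96 h it was 1 instead of 0 when only the groups compared were fitted. Of the 8 other pathway genes called at 48 h, there were 4 with all clusters tested, 4 with trend and robust variance, 13 with array weights and 3 to 5 without single arrays. For 48 h against 24 h the 2 calls became 1 with all clusters, 0 with only the groups compared and 0 to 1 without single arrays. For 96 h against 48 h the 7 calls became 4 with only the groups compared and 1 to 3 without single arrays. Leaving out 3 arrays that deviated together (12 h replicate 2, 24 h replicate 3 and untreated replicate 3), an alternative chosen after seeing the data, ended the 48 h calls of B4galt7, Extl2, Ust and Ugdh (adjusted p = 0.0971, 0.106, 0.082 and 0.0543) and the 96 h call of Uxs1 (-0.40, adjusted p = 0.0696). It also ended the calls of Ids and Ust for 96 h against 48 h (adjusted p = 0.0657 and 0.0574), and added those of Glce at 96 h (0.30, adjusted p = 0.0251) and for 96 h against 48 h (-0.37, adjusted p = 0.0221). With 2 or 3 arrays a group, and 1 array left in a group of 2, precision is limited. The cause of each change was not tested.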

Other observations

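Besides Sulf1, 2 core proteins of the matrix varied widely between replicate arrays. The pooled within-group SD was 0.451 log2 units for Agrn (agrin) and 0.364 for Hspg2 (perlecan), larger than in 99.6% and 98.7% of genes, against 0.0722 for Papss1 and 0.0981 for Sdc2. At 96 h their changes were 0.40 (Agrn, 95% confidence interval -0.41 to 1.2) and 0.39 (Hspg2, -0.26 to 1.04), and limma called neither. These 2 genes were chosen after their values were seen.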
